A study of Homo sapiens with 42 samples.

Results

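The immediate early transcription factors described here are 10 genes, FOS, FOSB, JUN, JUNB, JUND, EGR1, ATF3, IER2, NR4A1 and NR4A2. They were taken by their GENCODE symbols from 58721 annotated genes, and all 10 were found, and passed the filter on low counts, in each of the 4 count tables. RNA-seq counts came from 42 libraries in 15 groups of human leukaemia cells. MV4;11, a myeloid line of wild-type ENL genotype, was given MS41, MS41N, PFI-6 or DMSO for 6 h or 24 h, with 3 libraries a group, and the 3 compounds at 100 nM. MS41 is a degrader of ENL, the acetylated-histone reader encoded by MLLT1, and PFI-6 blocks the acetyl-binding YEATS domains of ENL and its paralog AF9. The labels state no role for MS41N, and the treatment protocol writes MS47N where the titles write MS41N. SEMK2, a B-cell precursor line that like MV4;11 carries an MLL fusion, was given MS41 at 100 nM or DMSO (3 libraries each, with no time given for these samples). MV4;11 cells labelled ENL KO carried ENL guide 1 or ENL guide 2, and cells labelled wild type carried the control guide (2 libraries a guide); the labels do not say whether they are clones. MV4;11 cells were also taken from xenografted mice given MS41 or vehicle (3 libraries each, with neither dose nor time given). How many mice each library holds, and whether mouse reads were set apart, is not given in the sources used here.

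Immediate early genes are transcribed within minutes of a stimulus from promoters that are already open, without new protein synthesis, and their mRNAs are unstable. FOS and JUN proteins pair through leucine zippers into AP-1, which binds the AP-1 site. MAP kinases act on their promoters through ternary complex factors with SRF at the CArG box and through CREB at the cyclic AMP response element (CRE). In myeloid cells EGR1 and AP-1 are known for their part in monocyte and macrophage differentiation, and NR4A1 is known as a suppressor of myeloid leukaemia in mice.

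Promoter windows from RefSeq (GRCh38.p14), 250 bases before to 50 after each annotated start, were matched by symbol for 9 of the 10 members; NR4A2 had no entry, and ATF3 and NR4A1 had more than one. The following 3 windows, ending at the start site, are shown because EGR1 rose while FOSB and JUND fell with MS41 at 6 h, and JUND was the member called with the ENL guides. Capitals mark the motifs, which are CRE matches in all 3, CArG boxes and an EGR site in EGR1, and a TATA box in FOSB. EGR1 is at chr5:138465229-138465478 (plus strand), FOSB at chr19:45467746-45467995 (plus strand) and JUND at chr19:18281623-18281872 (minus strand).
EGR1: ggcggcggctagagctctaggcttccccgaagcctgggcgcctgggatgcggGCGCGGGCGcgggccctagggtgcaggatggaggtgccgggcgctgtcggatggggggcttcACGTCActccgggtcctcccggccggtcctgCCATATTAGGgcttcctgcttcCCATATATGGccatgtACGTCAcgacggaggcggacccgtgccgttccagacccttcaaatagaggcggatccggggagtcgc
FOSB: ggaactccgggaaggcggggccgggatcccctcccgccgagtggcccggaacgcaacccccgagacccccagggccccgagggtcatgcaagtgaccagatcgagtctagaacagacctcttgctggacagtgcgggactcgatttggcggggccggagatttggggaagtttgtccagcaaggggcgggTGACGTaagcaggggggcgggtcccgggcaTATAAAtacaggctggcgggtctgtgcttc
JUND: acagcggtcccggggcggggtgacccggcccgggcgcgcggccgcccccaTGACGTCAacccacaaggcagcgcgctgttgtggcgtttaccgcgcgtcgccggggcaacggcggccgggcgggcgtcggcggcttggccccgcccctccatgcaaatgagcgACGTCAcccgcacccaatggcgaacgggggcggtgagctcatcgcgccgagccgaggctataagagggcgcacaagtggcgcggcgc

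Motifs were searched by their letters in the 300-base windows, on both strands except for the TATA box, which was searched on the gene's strand. EGR1 was the member with CArG boxes (searched by name), 2 of them, beginning 105 and 83 bases before the start; 1.29% of 35116 windows held one. EGR1 also held the EGR site, spelled GCGNGGGCG, which 9.43% of windows held. The full CRE, TGACGTCA, was in JUND against 1.85% of windows. Its first 6 letters, TGACGT, also counted where they lie within the full one, were in 4 members (EGR1, FOS, FOSB and JUND) against 7.98% of windows. The TATA box was searched as the letters TATAAA and was in 4 members (ATF3, FOS, FOSB and JUNB) against 7.33%. The AP-1 site was searched as the letters TGANTCA and was in none of the 9 members, against 7.71% of windows. These are matches of letters in a window and say nothing of binding.

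Library totals were 102345811 to 156479711 counts in the MV4;11 compound table, 77216662 to 87813453 for the guides, 155911682 to 230637548 for SEMK2 and 99485164 to 126740852 in vivo. NR4A1 rested on 14 to 76 counts per compound library, the least of the members. MLLT1 was at 181 and 190 CPM with ENL guide 1 and 123 and 127 CPM with ENL guide 2, against 223 and 250 CPM with the control guide. MLLT1 thus fell by 0.63 on the log2 scale over both guides (edgeR adjusted p = 6.4e-05), with transcript still present. DMSO replicate 3 of SEMK2 stood apart from the other SEMK2 DMSO libraries, with 3.13% of its counts from mitochondrial genes against 2.21% and 2.37%, a share within the 2.98% to 3.23% of the MS41 libraries. On the first principal component (29.8% of the variance) DMSO replicate 1 of SEMK2 lay at -41.2, while the other SEMK2 libraries lay between 4.44 and 10.9. SEMK2 results are given with and without each of these libraries.

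Values are CPM, counts per 1000000 of the TMM-scaled library size. Differences are log2 fold changes from edgeR's quasi-likelihood test with Benjamini-Hochberg adjustment over all genes tested, and a gene is called when its adjusted p is below 0.05. The comparisons of the compounds with DMSO share the same 3 DMSO libraries at each time, so a deviation of those libraries enters all of them.

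At 6 h MS41 changed 9 of the 10 members, 2 of them higher (EGR1 and ATF3) and 7 lower (FOS, FOSB, JUN, JUNB, JUND, IER2 and NR4A2), when 26% of all 22711 genes tested were called. MS41N changed 2 members, both lower (JUNB and NR4A2), against 0.321% of all genes. PFI-6 changed 3, all lower (JUNB, JUND and NR4A2), against 2.05%. The members' median was -0.34 with MS41, -0.20 with MS41N and -0.24 with PFI-6, beside 0.02, 0.00 and 0.01 over all genes. At 24 h MS41 changed 7 members, ATF3 higher and FOSB, JUN, JUNB, JUND, IER2 and NR4A1 lower, when 44.3% of all genes were called. PFI-6 changed 3 at 24 h, FOS and JUN higher and IER2 lower, against 12.4% of all genes. MS41N changed none at 24 h by edgeR or DESeq2 (2 members had an unadjusted p below 0.05 by edgeR), against 0.0352% of all genes.

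Read by direction, the share of all genes called with MS41 was 12.2% higher and 13.8% lower at 6 h and 21.4% and 22.9% at 24 h. With MS41N it was 0.0264% higher and 0.295% lower at 6 h, and 0.0176% each way at 24 h. With PFI-6 it was 0.66% higher and 1.39% lower at 6 h, and 5.57% and 6.78% at 24 h. The 3 libraries of a compound did not overlap the 3 of DMSO in 9 members with MS41, 5 with MS41N and 6 with PFI-6 at 6 h, against 37.4%, 14.3% and 20.6% of all genes. At 24 h they did not overlap in 6, 2 and 5 members, against 50.2%, 14.3% and 27.9% of all genes. The share of members called was thus above the share of all genes with MS41 and PFI-6 at both times and with MS41N at 6 h. Without 1 library the count ranged 0 to 2 for MS41N at 6 h and 1 to 4 for PFI-6 at 24 h. The members were chosen with earlier results of these data known, and several vary together. These shares are therefore descriptions and no test of the set. The 6 members without overlap for MS41 at 24 h lay near the 50.2% of all genes. The shares over all genes were not matched to the members for expression level. These are bulk samples, in which fewer cells of a type and less RNA per cell cannot be told apart.

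**Figure D1:**
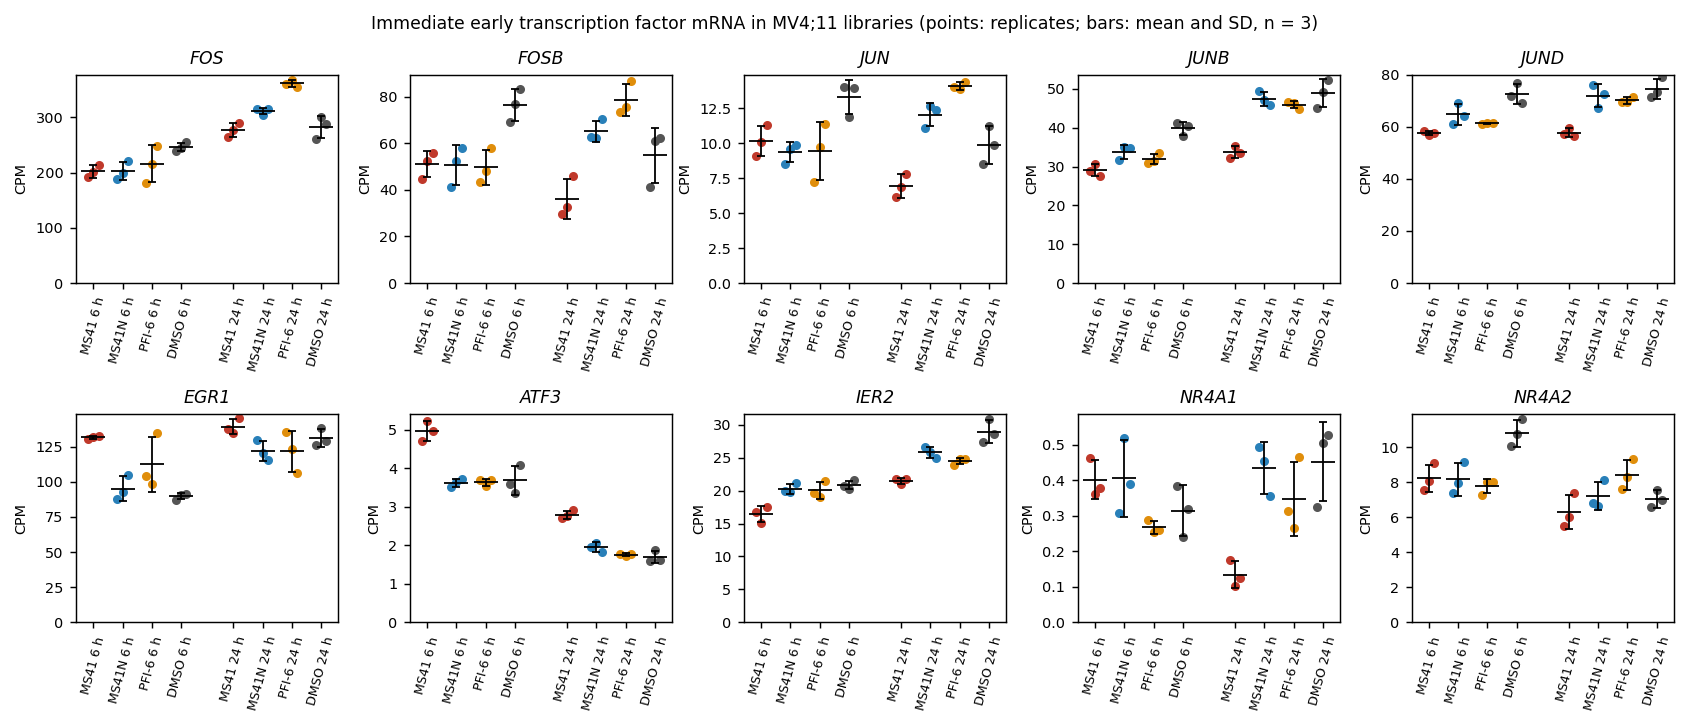
CPM of each member (linear axis from 0) in the 24 MV4;11 compound libraries, by compound and time; points are replicates, bars the mean and SD of 3. NR4A1 at 24 h with MS41 (0.103 to 0.176 CPM) and EGR1 at 6 h with MS41 (131 to 132 CPM) lie outside their DMSO groups.

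FOS, the founding partner of JUN in AP-1, was at 192, 201 and 213 CPM after 6 h of MS41, 188, 199 and 221 CPM with MS41N and 182, 216 and 249 CPM with PFI-6, against 240, 245 and 255 CPM with DMSO. All 3 MS41 and all 3 MS41N libraries lay below the DMSO range, and 1 PFI-6 library lay within it. The fall was called for MS41 (-0.29, SE 0.09, adjusted p = 0.019); MS41N gave -0.28 (adjusted p = 0.27) and PFI-6 -0.19 (adjusted p = 0.31). The MS41 call was lost when DMSO 6 h replicate 3 (adjusted p = 0.067), MS41 6 h replicate 1 (0.073) or MS41 6 h replicate 2 (0.051) was left out. At 24 h FOS was at 264, 278 and 290 CPM with MS41, 305, 314 and 315 CPM with MS41N and 356, 361 and 368 CPM with PFI-6, against 260, 287 and 300 CPM with DMSO. The PFI-6 libraries were all above the other 9, and PFI-6 was higher than DMSO by 0.36 (SE 0.09, adjusted p = 0.011). Without DMSO 24 h replicate 1 that rise was 0.30 and not called (adjusted p = 0.055). MS41 did not differ detectably from DMSO at 24 h (-0.03, 95% interval -0.21 to 0.16).

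FOSB, a FOS paralog, was at 44.9, 52.4 and 55.8 CPM after 6 h of MS41, 41.3, 52.6 and 58.0 CPM with MS41N and 43.3, 48.0 and 58.1 CPM with PFI-6, against 69.1, 77.1 and 83.3 CPM with DMSO. Each compound group lay wholly below DMSO, and the 3 compounds overlapped one another. The log2 differences were -0.58 for MS41 (SE 0.18, adjusted p = 0.022), -0.60 for MS41N (0.26) and -0.62 for PFI-6 (0.089). DESeq2 called the PFI-6 value as well (adjusted p = 0.029). The MS41 call was lost without DMSO 6 h replicate 2 (adjusted p = 0.055), DMSO 6 h replicate 3 (0.081) or MS41 6 h replicate 1 (0.088). At 24 h FOSB was at 29.8, 32.6 and 45.9 CPM with MS41, 62.2, 63.0 and 70.5 CPM with MS41N and 73.7, 75.6 and 86.7 CPM with PFI-6, against 41.3, 60.9 and 62.4 CPM with DMSO. FOSB fell by 0.61 with MS41 (adjusted p = 0.011), though 1 MS41 library lay above 1 DMSO library, while PFI-6 gave 0.52 (adjusted p = 0.07, or 0.03 by DESeq2). That 24 h call was lost without DMSO replicate 2 (adjusted p = 0.051), DMSO replicate 3 (0.058) or MS41 replicate 1 (0.064), and in a fit of the compared groups only (0.14). FOSB overlaps the antisense gene ERCC1, which had 6259 to 11897 counts in these libraries, and the counting strand is not stated, so part of the FOSB counts may be ERCC1's. In SEMK2, where ERCC1 had 9064 to 12092 counts, FOSB had a mean of 2.69 CPM with MS41 and 2.73 CPM with DMSO. The part of ERCC1 in the FOSB values was not tested.

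JUN, the partner that defines AP-1, was at 9.10, 10.1 and 11.3 CPM after 6 h of MS41, 8.53, 9.60 and 9.88 CPM with MS41N and 7.23, 9.73 and 11.3 CPM with PFI-6, against 11.9, 13.9 and 14.0 CPM with DMSO. Again every compound library lay below every DMSO library. JUN fell by 0.38 with MS41 (SE 0.13, adjusted p = 0.036), while MS41N gave -0.51 (adjusted p = 0.13) and PFI-6 -0.50 (adjusted p = 0.058). DESeq2 called both of these (adjusted p = 0.038 for MS41N and 0.021 for PFI-6), the MS41N value was called in a fit of the compared groups only (0.00033), and the PFI-6 value was -0.65 and called without PFI-6 6 h replicate 3 (0.0095). The MS41 call was lost without DMSO 6 h replicate 1 (adjusted p = 0.12) or 3 (0.11) or MS41 6 h replicate 1 (0.13) or 2 (0.091), without the filter on low counts (0.064) and after a trend with GC content was removed (0.084). At 24 h JUN was at 6.16, 6.83 and 7.81 CPM with MS41, 11.1, 12.4 and 12.6 CPM with MS41N and 13.9, 14.0 and 14.4 CPM with PFI-6, against 8.51, 9.86 and 11.2 CPM with DMSO. MS41 lay below DMSO and PFI-6 above it, with changes of -0.51 (adjusted p = 0.0043) and 0.51 (adjusted p = 0.013). The PFI-6 rise was lost without DMSO 24 h replicate 1 (adjusted p = 0.062) or 3 (0.066).

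JUNB, a JUN paralog that often opposes JUN in growth control, was at 28.9, 30.7 and 27.6 CPM after 6 h of MS41, 31.8, 35.1 and 34.7 CPM with MS41N and 30.8, 31.6 and 33.5 CPM with PFI-6, against 41.3, 37.9 and 40.4 CPM with DMSO. It fell with all 3 compounds, with changes of -0.46 for MS41 (SE 0.05, adjusted p = 1.9e-10), -0.24 for MS41N (adjusted p = 0.0094) and -0.32 for PFI-6 (adjusted p = 0.0001). The MS41N call was lost without DMSO 6 h replicate 1 (adjusted p = 0.087) or MS41N 6 h replicate 1 (0.17). At 24 h JUNB was at 32.2, 35.3 and 33.6 CPM with MS41 and between 44.8 and 49.4 CPM with MS41N or PFI-6, against 45.2, 49.2 and 52.3 CPM with DMSO. JUNB thus fell by 0.54 with MS41 at 24 h (adjusted p = 2.2e-13), or by 0.34 after the GC trend was removed (adjusted p = 5.8e-09). JUNB overlaps the antisense gene HOOK2, which had 1235 to 2169 counts in these libraries and 1915 to 2874 in vivo, so part of the JUNB counts may be HOOK2's.

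JUND, the JUN paralog that many resting cells express steadily, was at 56.8, 57.4 and 58.5 CPM after 6 h of MS41, 61.1, 64.2 and 69.1 CPM with MS41N and 61.1, 61.3 and 61.6 CPM with PFI-6, against 69.1, 71.7 and 76.6 CPM with DMSO. It fell with MS41 (-0.33, SE 0.04, adjusted p = 1.6e-08) and PFI-6 (-0.24, adjusted p = 0.00077), and MS41N gave -0.16 (adjusted p = 0.068). The MS41N value was called by DESeq2 (adjusted p = 0.046), without the filter on low counts (0.0016) and with the GC trend removed (-0.17, 0.0097). That value was also called without DMSO 6 h replicate 3 (0.035) or MS41N 6 h replicate 2 (0.014). At 24 h JUND was at 56.6, 57.1 and 59.6 CPM with MS41, against 71.5, 73.5 and 78.9 CPM with DMSO, and the change was -0.37 (adjusted p = 2.6e-10). JUND is the member of highest GC content, 69.7% over its exons. With a trend of fold change with GC content removed, the 24 h change with MS41 became -0.06 and was no longer called (adjusted p = 0.15), the 6 h change with PFI-6 became -0.14 (adjusted p = 0.025), and the 24 h value with PFI-6, which was -0.09 and not called, became 0.19 and was called (adjusted p = 0.0014). At 6 h the MS41 change became -0.26 (adjusted p = 1.4e-07).

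EGR1, a zinc finger factor induced by serum and growth factors, was at 131, 132 and 132 CPM after 6 h of MS41, 87.6, 92.7 and 105 CPM with MS41N and 98.5, 104 and 135 CPM with PFI-6, against 87.3, 90.7 and 91.1 CPM with DMSO. The MS41 libraries were closely grouped above DMSO, and a single PFI-6 library reached their level. EGR1 rose with MS41 (0.55, SE 0.10, adjusted p = 0.00042), while PFI-6 gave 0.32 (adjusted p = 0.12) and MS41N 0.08 (95% interval -0.13 to 0.30). At 24 h EGR1 was at 135, 138 and 145 CPM with MS41, 115, 120 and 129 CPM with MS41N and 106, 123 and 135 CPM with PFI-6, against 126, 129 and 138 CPM with DMSO. The MS41 libraries overlapped those of PFI-6 and DMSO and lay above those of MS41N. None of the 3 compounds was called at 24 h, and the MS41 interval was -0.13 to 0.30, though a fit of the compared groups only called MS41 against DMSO (0.09, adjusted p = 0.028).

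ATF3, a stress-induced factor that pairs with JUN proteins, was at 4.71, 4.97 and 5.23 CPM after 6 h of MS41, 3.51, 3.63 and 3.73 CPM with MS41N and 3.54, 3.69 and 3.69 CPM with PFI-6, against 3.37, 3.60 and 4.09 CPM with DMSO. At 24 h it was at 2.70, 2.76 and 2.91 CPM with MS41, 1.83, 1.96 and 2.07 CPM with MS41N and 1.72, 1.77 and 1.79 CPM with PFI-6, against 1.60, 1.63 and 1.87 CPM with DMSO. MS41 stood above all 9 other libraries at each time. ATF3 rose with MS41 by 0.43 at 6 h (SE 0.10, adjusted p = 0.0007) and by 0.71 at 24 h (SE 0.11, adjusted p = 3.2e-07), and the MS41N and PFI-6 intervals all included 0.

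IER2, a short nuclear protein induced early by growth factors, was at 15.1, 16.7 and 17.5 CPM after 6 h of MS41, and at 19.0 to 21.4 CPM with MS41N or PFI-6, against 20.3, 20.7 and 21.5 CPM with DMSO. At 24 h it was at 21.0, 21.7 and 21.8 CPM with MS41, 25.01, 25.8 and 26.6 CPM with MS41N and 23.9, 24.7 and 24.7 CPM with PFI-6, against 27.3, 28.7 and 30.9 CPM with DMSO. Every MS41 library was below every DMSO library at both times. IER2 fell by 0.34 at 6 h (adjusted p = 1.4e-06) and by 0.43 at 24 h (adjusted p = 1.1e-09) with MS41. It fell by 0.24 with PFI-6 at 24 h (adjusted p = 0.00095), a change that was -0.08 and not called once the GC trend was removed (adjusted p = 0.54).

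NR4A1, an orphan nuclear receptor (Nur77), was the lowest member in MV4;11 culture and its counts were few. At 6 h it was at 0.463, 0.362 and 0.378 CPM with MS41, against 0.382, 0.240 and 0.320 CPM with DMSO, and the 38 to 57 counts behind the MS41 values overlapped the 33 to 56 behind DMSO. At 24 h it was at 0.176, 0.103 and 0.124 CPM with MS41 (14 to 23 counts), 0.495, 0.454 and 0.355 CPM with MS41N and 0.313, 0.265 and 0.464 CPM with PFI-6, against 0.324, 0.506 and 0.526 CPM with DMSO (38 to 73 counts). The MS41 libraries were the lowest of all. The 6 h difference was 0.35 and not called (95% interval -0.27 to 0.97), and the 24 h change was -1.75 (SE 0.33, adjusted p = 1.9e-05).

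NR4A2 (Nurr1), its paralog, was at 7.56, 8.10 and 9.09 CPM after 6 h of MS41, 7.37, 7.97 and 9.19 CPM with MS41N and 7.31, 8.03 and 8.05 CPM with PFI-6, against 10.1, 10.8 and 11.6 CPM with DMSO. All 9 compound libraries were below DMSO and overlapped one another. NR4A2 was the member besides JUNB called for every compound at 6 h, with -0.39 for MS41 (adjusted p = 0.0015), -0.40 for MS41N (0.039) and -0.47 for PFI-6 (0.0042). The MS41N call was lost without DMSO 6 h replicate 2 (adjusted p = 0.19) or 3 (0.21), or MS41N 6 h replicate 1 (0.32) or 2 (0.16). At 24 h no compound differed from DMSO by a called amount. The MS41 value was -0.16 (95% interval -0.36 to 0.04), and -0.29 and called without MS41 24 h replicate 3 (adjusted p = 0.02). PFI-6 gave 0.26 at 24 h (adjusted p = 0.077). That PFI-6 value was called without the filter on low counts (0.0079) and with replicate number as a term (0.015). It was also called in a fit of the compared groups only (0.034) and without PFI-6 24 h replicate 1 (0.32, adjusted p = 0.047).

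**Figure D2:**
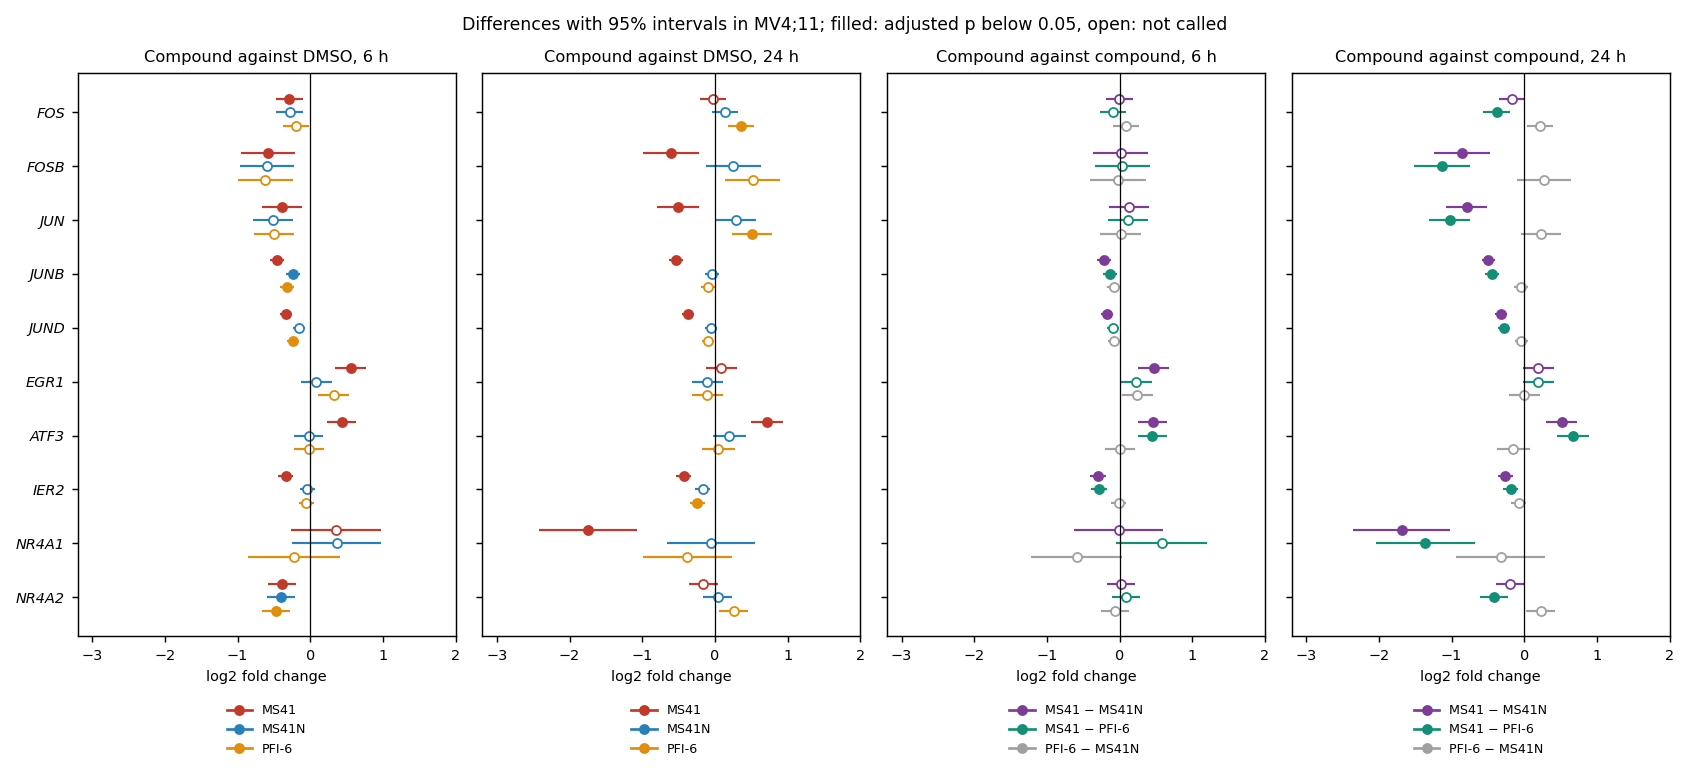
Log2 fold changes of the members with 95% intervals, at 6 h and 24 h; the left pair of panels sets each compound against DMSO and the right pair sets compounds against each other. Filled points have an adjusted p below 0.05, so NR4A1 is filled at 24 h with MS41 and open at 6 h.

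Setting the compounds directly against each other asks which of these differences are beyond those shared with MS41N or PFI-6. At 6 h MS41 differed from MS41N in 5 members, against 21.8% of all genes called. EGR1 was higher by 0.47 (95% interval 0.25 to 0.68, adjusted p = 0.0021), ATF3 by 0.46 (adjusted p = 0.00041), while IER2 (-0.30, adjusted p = 1.8e-05), JUNB (-0.22, adjusted p = 0.00041) and JUND (-0.17, adjusted p = 0.0015) were lower. The JUND difference was -0.09 and not called after the GC trend was removed (adjusted p = 0.074). FOS, FOSB, JUN, NR4A1 and NR4A2 were not called, with differences from -0.01 to 0.13 and intervals of -0.37 to 0.40 for FOSB and -0.18 to 0.21 for NR4A2. MS41 differed from PFI-6 at 6 h in 3 members, against 19.5% of all genes: ATF3 was higher (0.45, adjusted p = 0.00059), and IER2 (-0.28, adjusted p = 5.6e-05) and JUNB (-0.14, adjusted p = 0.039) were lower. That JUNB difference was lost without any of 4 libraries, MS41 6 h replicate 1 (adjusted p = 0.093) or 3 (0.22), or PFI-6 6 h replicate 2 (0.077) or 3 (0.22). EGR1 was called as higher than with PFI-6 when PFI-6 6 h replicate 3 was left out (0.38, adjusted p = 0.0055, against 0.23, adjusted p = 0.14, with it).

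At 24 h MS41 differed from MS41N in 7 members, against 42.4% of all genes, and from PFI-6 in 9, against 42.3%. ATF3 was higher with MS41 than with MS41N (0.51, adjusted p = 8.4e-05) and PFI-6 (0.66, adjusted p = 1.3e-06). FOSB was lower than with MS41N (-0.86, adjusted p = 0.00082) and PFI-6 (-1.13, adjusted p = 5.2e-05), and so was JUN (-0.79, adjusted p = 5.5e-05, and -1.02, adjusted p = 2.2e-06). NR4A1 was lower as well (-1.69 against MS41N, adjusted p = 3.5e-05, and -1.36 against PFI-6, adjusted p = 0.00076). FOS (-0.38, adjusted p = 0.0013) and NR4A2 (-0.42, adjusted p = 0.00043) were lower against PFI-6 and not called against MS41N, where FOS was at -0.17 (95% interval -0.35 to 0.02) and NR4A2 at -0.20 (-0.39 to 0.0025). The edgeR fit of the compared groups only called FOS against MS41N (-0.18, adjusted p = 2.2e-05). JUND against MS41N was -0.32, or -0.14 after the GC trend was removed (adjusted p = 0.00091). EGR1 was called in neither, at 0.19 in both, though a fit of the compared groups only called it against MS41N (0.18, adjusted p = 0.0067). PFI-6 and MS41N did not differ in any member at either time by DESeq2 or by edgeR fitted over all groups. Of all genes, edgeR called 0.0132% at 6 h and 0.106% at 24 h. By edgeR, 1 member at 6 h and 2 at 24 h had an unadjusted p below 0.05. For EGR1 the 6 h interval was 0.03 to 0.45, and for FOS the 24 h interval was 0.04 to 0.40. With edgeR fitted to the compared groups only, FOS was called higher with PFI-6 than with MS41N at 24 h (0.21, adjusted p = 3.3e-06).

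Of all genes, 10.1% were called higher and 11.7% lower with MS41 than with MS41N at 6 h, and 20.5% and 21.9% at 24 h. Against PFI-6 these shares were 9.35% and 10.1% at 6 h and 20.7% and 21.6% at 24 h. The MS41 and MS41N libraries did not overlap in 5 members at 6 h and 9 at 24 h, against 32.7% and 48.5% of all genes. The MS41 and PFI-6 libraries did not overlap in 5 and 9 members, against 31.9% and 49.3%. Between PFI-6 and MS41N, 1 member at 6 h (NR4A1) and 5 at 24 h did not overlap, against 11.8% and 17% of all genes; 0.0132% of genes were called lower at 6 h, and 0.044% were called higher and 0.0616% lower at 24 h.

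The change of each effect with time was tested directly. The MS41 effect was lower at 24 h than at 6 h for EGR1 (-0.47, adjusted p = 0.021) and NR4A1 (-2.10, SE 0.45, adjusted p = 0.00027), against 26.4% of all genes (11.9% higher and 14.5% lower). The EGR1 change was not called without DMSO 6 h replicate 1 (adjusted p = 0.052), DMSO 24 h replicate 2 (0.056) or MS41 24 h replicate 2 (0.051). The PFI-6 effect was higher at 24 h for JUN (1.01, adjusted p = 0.029) and NR4A2 (0.73, adjusted p = 0.0071), against 0.119% of all genes (0.101% higher and 0.0176% lower). Leaving out any 1 of 8 of the 12 libraries compared ended the JUN call, and without DMSO 24 h replicate 3 neither remained (adjusted p = 0.11 for JUN and 0.052 for NR4A2). By edgeR, 8 members had an unadjusted p below 0.05 for the PFI-6 change. Among the uncalled, FOSB was at 1.14 (adjusted p = 0.095) and FOS at 0.55 (0.094), and DESeq2 called both (0.0058 and 0.0051). The MS41N effect changed for no member by edgeR (5 had an unadjusted p below 0.05) and for 1 by DESeq2 (JUN, 0.80, adjusted p = 0.037), against 0.0176% of all genes (0.00881% in each direction).

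The DMSO cultures themselves differed between the times in 6 members, against 30.2% of all genes (16.7% higher and 13.5% lower). The times did not overlap in 8 members, against 41.2% of all genes. EGR1 was at 126, 129 and 138 CPM at 24 h, against 87.3, 90.7 and 91.1 CPM at 6 h (0.55, adjusted p = 0.00037). IER2 (0.47, adjusted p = 2.5e-10) and JUNB (0.30, adjusted p = 1.7e-06) were also higher at 24 h. ATF3 was lower at 24 h (-1.11, adjusted p = 9.5e-12), as were NR4A2 (-0.62, adjusted p = 1.6e-06) and JUN (-0.43, adjusted p = 0.016). The JUN call was lost without DMSO 6 h replicate 1 (adjusted p = 0.063) or 3 (0.062) or DMSO 24 h replicate 1 (0.087) or 3 (0.051). FOSB was at -0.48 and not called (adjusted p = 0.052). DESeq2 called it (0.023), as did edgeR with RLE scaling (0.046), a stricter count filter (0.037) or the GC trend removed (0.042). FOS was at 0.20 and not called (adjusted p = 0.10), but was called with the replicate block (0.035) and with the compared groups only (0.018). Heat shock genes, listed as a sign of handling, moved with time too, since 7 of 11 were lower at 24 h in DMSO, with HSPA1A at 103 CPM at 24 h, against 417 CPM at 6 h. Their summed level was 5691 to 5945 CPM with MS41 at 24 h, against 10276 to 10779 CPM with DMSO at 24 h; their part in the members' values was not tested.

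Around the members, MS41 at 6 h lowered both FOS-related partners of AP-1. FOSL2 was at 59.4, 60.8 and 63.1 CPM with MS41, against 98.5, 99.5 and 99.6 CPM with DMSO (-0.70, SE 0.03, adjusted p = 3.1e-23). FOSL1, named after its value was seen, changed by -0.67 (adjusted p = 3.7e-09). Of 12 AP-1 and small MAF partners 2 rose and 4 fell at 6 h and 3 rose and 4 fell at 24 h. Among these at 24 h MAFK, a small MAF protein, fell by 0.46 (adjusted p = 1.6e-07). Of 5 tested EGR and NR4A paralogs and EGR corepressors 1 rose at each time: NAB1, a corepressor of EGR proteins, at 6 h (0.26, adjusted p = 5.9e-06) and EGR2, named after its value was seen, at 24 h. EGR2 was at 2.15, 2.21 and 2.25 CPM with MS41, against 0.435, 0.780 and 0.923 CPM with DMSO (1.62, SE 0.24, adjusted p = 1.7e-07). Of 26 other immediate early genes 6 rose and 7 fell at 6 h and 12 rose and 7 fell at 24 h with MS41, with a median of 0.01 and 0.12. BTG2, an antiproliferative gene, rose by 0.41 and 0.99 (adjusted p = 3.4e-06 and 3.1e-17), and CITED2 fell by 0.43 at 6 h (adjusted p = 3.6e-16).

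Of 11 tested genes known as AP-1 or EGR targets, 5 rose with MS41 at 6 h, and 9 rose and 1 fell at 24 h, with medians of 0.10 and 0.60 beside 0.02 over all genes at both times. CXCL8, a neutrophil chemokine, was at 27.8, 30.7 and 31.7 CPM after 24 h of MS41, against 5.59, 5.72 and 6.34 CPM with DMSO (2.35, SE 0.08, adjusted p = 1.1e-27). With PFI-6 at 24 h 2 of these 11 rose, among them VIM (0.10, adjusted p = 0.0035). Of 16 upstream kinases 2 rose and 3 fell with MS41 at 6 h and 5 rose and 5 fell at 24 h. FLT3, a receptor kinase mutated in MV4;11, fell by 0.52 at 6 h (adjusted p = 2.4e-23) and 0.43 at 24 h (adjusted p = 1.9e-21). Of 12 upstream transcription factors 4 rose and 3 fell at 6 h and 5 rose and 4 fell at 24 h, among them ELK3, a ternary complex factor (0.30 and 0.75, adjusted p = 1.6e-05 and 1.9e-16), and SRF at 24 h (-0.22, adjusted p = 1.2e-06). Myeloid markers summed to 3334 to 3540 CPM with MS41 at 24 h, against 2316 to 2374 CPM with DMSO; their part in these values was not tested.

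Across the 24 compound libraries the members did not form a single pattern. FOSB and JUN had the highest likeness of any pair (Pearson r = 0.95 of log2 CPM), and each was the other's nearest among 9287 genes of average log2 CPM of at least 3. JUNB and IER2 (r = 0.89), JUNB and JUND (r = 0.86) and FOS and JUNB (r = 0.79) were alike, and ATF3 ran against IER2 (r = -0.91), JUNB (r = -0.87) and FOS (r = -0.83). The gene nearest to IER2 was PRTN3 (r = 0.95), to JUNB EFTUD2 (r = 0.96), to JUND CLEC11A (r = 0.91), to FOS UIMC1 (r = 0.92), to EGR1 DSN1 (r = 0.85) and to NR4A2 TSC22D3 (r = 0.77), whose next nearest were KLF6 and PPP1R15A. The libraries share compounds, times and sequencing, and these values are descriptions.

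**Figure D3:**
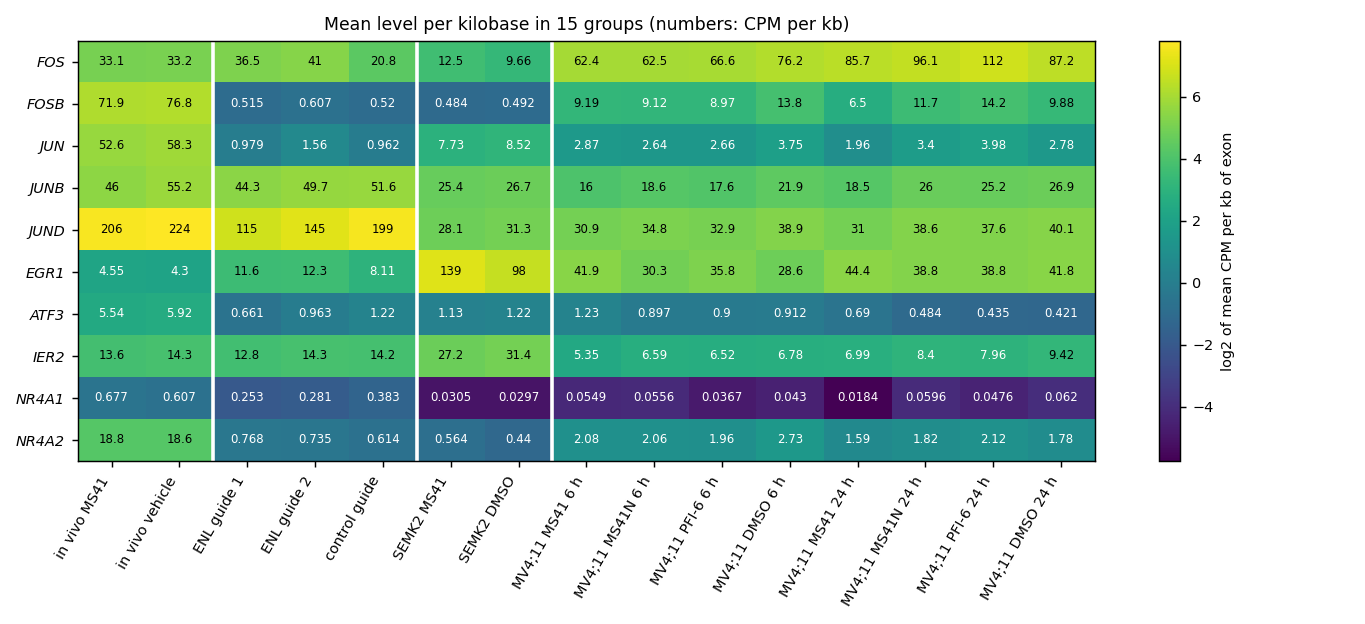
Mean level per kilobase of exon (CPM per kb; colour on a log2 scale) of each member in the 15 groups, with the 4 separately normalised tables divided by white lines. FOSB runs between 0.484 in SEMK2 with MS41 and 76.8 in vivo with vehicle, and EGR1 is highest in SEMK2.

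Per kilobase of exon, FOS was the highest member in every one of the 8 MV4;11 compound groups, at 62.4 to 112 CPM per kb, and NR4A1 the lowest, at 0.0184 to 0.0620 CPM per kb. Between tables the order differed. In vivo JUND (206 CPM per kb with MS41, 224 with vehicle), FOSB (71.9 and 76.8) and JUN (52.6 and 58.3) led, and NR4A2 was at 18.8 and 18.6. In SEMK2 EGR1 led, at 139 CPM per kb with MS41 and 97.99 with DMSO. The guide tables had JUND highest, at 115 and 145 CPM per kb with ENL guides 1 and 2 and 199 with the control guide, and FOSB at 0.515, 0.607 and 0.520. The tables were normalised separately and the in vivo libraries came from a low-input kit, so no test was made between tables.

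In SEMK2 MS41 changed 3 of the 10 members, EGR1 and FOS higher and IER2 lower, against 1.36% of all genes (0.84% higher and 0.518% lower). The groups did not overlap in 4 members, against 18.2% of all genes. EGR1 was at 453, 434 and 422 CPM with MS41, against 308, 318 and 296 CPM with DMSO (0.51, SE 0.04, adjusted p = 1.3e-05), and FOS at 41.6, 40.1 and 39.5 CPM, against 30.9, 31.4 and 31.5 CPM (0.37, adjusted p = 0.0011). The groups did not overlap for either gene. IER2 was at 82.4, 83.7 and 84.9 CPM with MS41, against 97.5, 99.4 and 92.3 CPM with DMSO (-0.21, adjusted p = 0.027), and lost its call without any 1 library other than DMSO replicate 3 (adjusted p 0.12 to 0.17). Without DMSO replicate 3, 6 members were called (EGR1 0.48, FOS 0.38, IER2 -0.23, JUN -0.20, JUNB -0.19 and JUND -0.28, adjusted p from 2.6e-09 to 0.024), when the count over all genes was 2986, against 291 with it. Without DMSO replicate 1, EGR1 and FOS were called, IER2 was not (adjusted p = 0.12), and the count over all genes was 176. JUND was at 47.5 CPM and JUNB at 40.2 CPM in DMSO replicate 3, against 63.6 and 63.8 CPM and 52.6 and 53.1 CPM in the other DMSO libraries. NR4A2 was at 2.58, 2.02 and 2.11 CPM with MS41, against 1.802, 1.82 and 1.61 CPM with DMSO, and was not called (0.36, adjusted p = 0.29).

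With the ENL guides JUND was the 1 member called, against 10.3% of all genes over both guides (5.32% higher and 4.98% lower), 7.48% with guide 1 (4.35% and 3.14%) and 4.94% with guide 2 (3.18% and 1.76%). The libraries did not overlap the control guide's in 4 members, against 36.7% of all genes over both guides, 51.2% with guide 1 and 49.5% with guide 2. JUND was at 233 and 196 CPM with ENL guide 1 and 263 and 277 CPM with ENL guide 2, against 390 and 353 CPM with the control guide. The change was -0.62 over both guides (SE 0.08, adjusted p = 0.00031), -0.79 with guide 1 taken alone (adjusted p = 0.00025) and -0.46 with guide 2 taken alone (adjusted p = 0.012). The guide 2 call was lost without either guide 2 library (adjusted p = 0.11 and 0.10). Without control guide replicate 1 or 2 the count over both guides was 2, and the second member was ATF3 with opposite signs. ATF3 was at 2.83 and 2.51 CPM with guide 1 and 3.43 and 4.35 CPM with guide 2, against 7.92 and 1.96 CPM with the control guide, whose libraries lay on either side of all 4 others. Its value over both guides was -0.62 with all libraries (adjusted p = 0.62), 0.71 without control guide replicate 1 (adjusted p = 0.046) and -1.29 without control guide replicate 2 (adjusted p = 0.00018). FOS was at 90.9 and 146 CPM with guide 1 and 83.3 and 182 CPM with guide 2, against 54.7 and 80.1 CPM, and EGR1 at 25.5 and 47.6 CPM and 15.9 and 61.3 CPM, against 27.8 and 23.1 CPM. For both genes the replicates of a guide lay further apart than the means of the guides, and neither gene was called without a replicate term (FOS 0.89, 95% interval -0.58 to 2.37; EGR1 0.56, -1.65 to 2.77). Both guides' FOS values lay above the control guide's of the same replicate number, and with replicate number as a term FOS was called (0.85, adjusted p = 0.016). Whether these numbers pair the libraries could not be decided from 2 replicates a guide. NR4A1 was at 1.88 and 1.81 CPM with guide 1 and 1.76 and 2.35 CPM with guide 2, against 3.21 and 2.38 CPM (-0.53, adjusted p = 0.095, or -0.52, adjusted p = 0.049, with the replicate term).

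In vivo no member was called by edgeR with replicate number as a term or by DESeq2, against 0.0328% of all genes (all of them lower), and JUNB was the 1 member with an unadjusted p below 0.05. JUNB was at 82.8, 81.5 and 86.7 CPM with MS41, against 102, 103 and 97.1 CPM with vehicle (-0.27, SE 0.06, adjusted p = 0.38). The groups overlapped for neither JUNB nor IER2, 2 members, against 30% of all genes without overlap. JUNB was called without the filter on low counts (adjusted p = 0.016). It was also called without the replicate term (adjusted p = 0.036), when 523 genes were called. That fit takes the libraries as independent. The deposited values were adjusted by replicate number, which ties them (correlations of deviations over all genes -0.84 to -0.76). The p-values without the term are therefore likely too small. FOSB was at 441, 334 and 423 CPM with MS41, against 380, 499 and 400 CPM with vehicle, and JUN at 182, 172 and 204 CPM, against 211, 221 and 187 CPM. Their intervals were -0.37 to 0.19 for FOSB and -0.33 to 0.03 for JUN. Stromal and endothelial markers summed to 597 to 636 CPM with MS41 and to 653 to 701 CPM with vehicle. Of the 8 markers, 3 and 4 were at 0. In cultured cells at 24 h the same list summed to 86.6 to 87.0 CPM with DMSO and 186 to 197 CPM with MS41. PECAM1, a marker on that list, alone had means of 86.7 and 191 CPM there. The sum by itself therefore does not show stromal or endothelial cells in vivo, and the part of such cells was not tested.

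**Figure D4:**
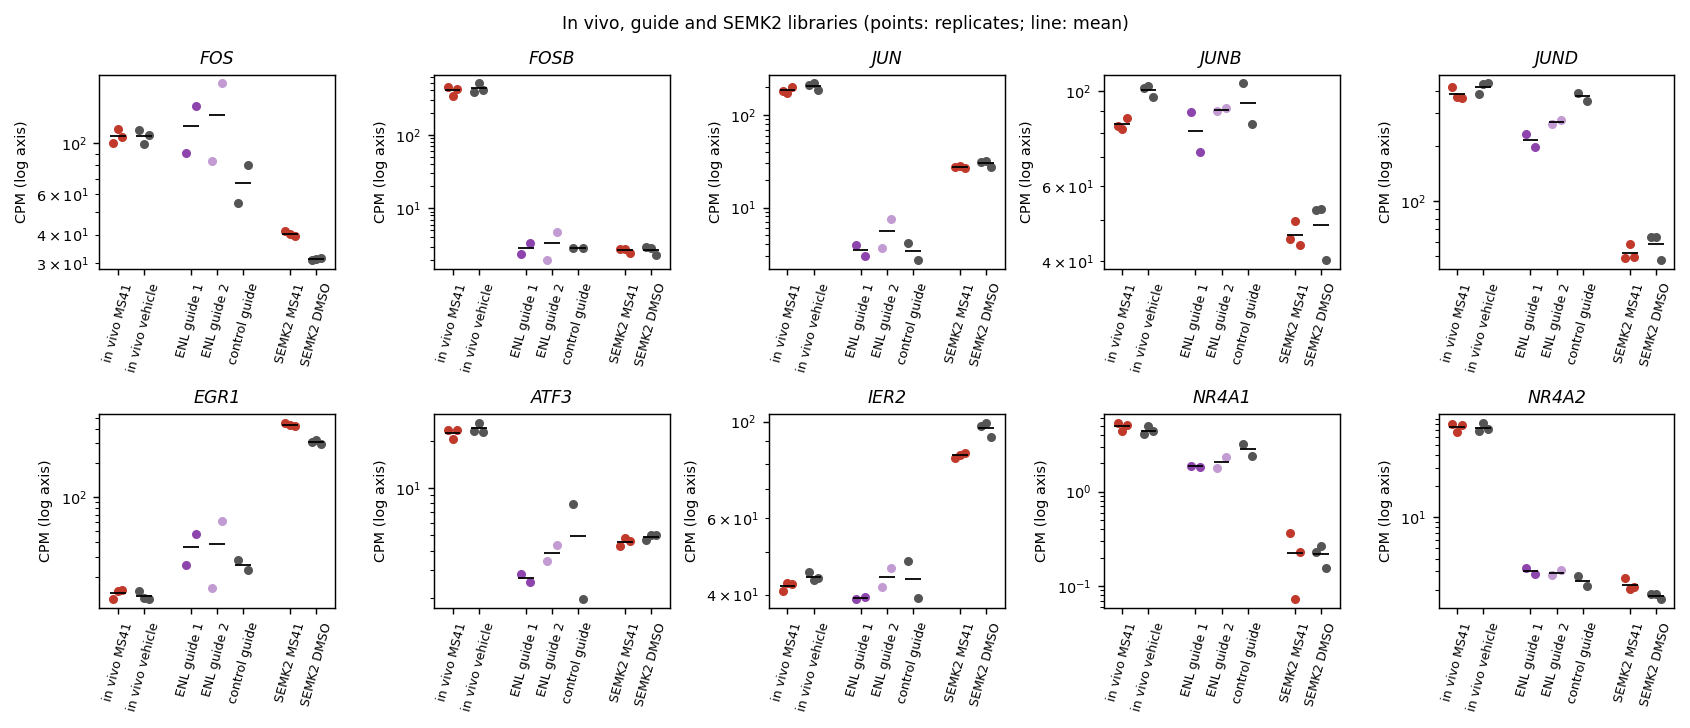
CPM (log axis) of each member in the in vivo, guide and SEMK2 libraries; points are replicates and lines are means. EGR1 lies higher with MS41 in SEMK2 (422 to 453 CPM) than with DMSO (296 to 318 CPM), and the JUND libraries with either ENL guide lie below both control guide libraries.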

How the data were processed

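RNA-seq of polyA RNA gave whole-number counts per gene for the MV4;11 compound, MV4;11 guide and SEMK2 tables and expected counts that need not be whole for the in vivo table. The counts and the expected counts were deposited by the authors for 58721 genes; hg38, HISAT2 2.1.0, HTSeq 0.11.3 and CASAVA 1.8 stand in the submitters' processing notes without roles, and the strand setting is not given in the sources used here. The deposited in vivo values carry an adjustment by replicate number, seen from the values: the mean of the MS41 and vehicle libraries of 1 number was nearly the same for each number. They were rounded to whole counts and fitted with replicate number as a term, since a fit without it takes tied libraries as independent.

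From these, each table was fitted by itself with edgeR 4.0.16 (TMM scaling, filterByExpr, quasi-likelihood test, R 4.3.3), with Benjamini-Hochberg adjustment over all genes tested and a threshold of 0.05. Intervals are 95% intervals of the log2 fold change. Gene lengths, GC content and neighbours came from GENCODE 29. Depth was 77216662 to 230637548 counts per library. Same-group libraries differed by more than sampling noise, so each counted as 1 replicate; nothing in the labels ties replicates to cultures or mice of their own, and p-values therefore measure the spread between these samples, which may be technical. The code was tested on simulated data. Alternatives were RLE scaling, other count filters, removal of a GC trend, replicate number as a term, DESeq2 1.42.0, fits of the compared groups only, and leaving out each library.

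All members are named; of other lists, the largest called rise and fall among genes of average log2 CPM of at least 3 are named per comparison. Members and lists were chosen with earlier results of these data known. The marker check of the SEMK2 line is not reported here.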

Additional observations from a re-analysis of the deposited data

Results flagged for a closer look

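The MS41 effect differed between the times for EGR1 and NR4A1 in a direct test of the difference, which compares 12 MS41 and DMSO libraries. For EGR1 the effect at 24 h was lower than at 6 h (-0.47 on the log2 scale, edgeR adjusted p = 0.021), with 0.09 at 24 h and 0.55 at 6 h. Mean EGR1 was 132 CPM at 6 h and 139 CPM at 24 h with MS41, and 89.7 and 131 CPM with DMSO. The DMSO baseline thus moved with the effect, and its part was not tested. The EGR1 call was lost without DMSO 6 h replicate 1 (adjusted p = 0.052), DMSO 24 h replicate 2 (0.056) or MS41 24 h replicate 2 (0.051). For NR4A1 the MS41 effect was lower at 24 h too (-2.10, adjusted p = 0.00027), with -1.75 at 24 h and 0.35 at 6 h, on 14 to 73 counts per library.

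The PFI-6 effect differed between the times for JUN, by 1.01 (adjusted p = 0.029), and for NR4A2, by 0.73 (adjusted p = 0.0071). JUN was at 0.51 at 24 h and -0.50 at 6 h, and NR4A2 at 0.26 at 24 h and -0.47 at 6 h. The DMSO libraries also differed between the times for both genes, so the baseline moved with the effect, and its part was not tested. DESeq2 also called the PFI-6 change for FOSB (adjusted p = 0.0058) and FOS (0.0051).

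With MS41 all 3 SEMK2 libraries lay above DMSO for FOS (0.37) and NR4A2 (0.36), while all 3 MV4;11 libraries lay below DMSO at 6 h (-0.29 and -0.39). The NR4A2 value in SEMK2 was not called (edgeR adjusted p = 0.29). In MV4;11 at 6 h MS41 was not called against MS41N for either gene (-0.0034 for FOS and 0.017 for NR4A2). At 24 h FOS with MS41 in MV4;11 was at -0.03 against DMSO and not called. The difference between the lines was not tested, since the tables were normalised separately and no time is given for the SEMK2 samples.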

How the results depend on the processing

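Of 210 member values, 64 were called. None of the 64 changed sign under any alternative run, 46 kept call and sign under every one, 15 lost the call when at least 1 library was left out and 6 under another alternative. Of the 146 others, 29 changed sign under another alternative and 46 when a library was left out. Among the uncalled values given above, those that changed sign after removal of the GC trend were JUND with PFI-6 at 24 h (0.19, adjusted p = 0.0014), the JUND change of the MS41 effect (0.20, adjusted p = 0.0023), FOS with MS41 at 24 h (0.0204), FOS (0.018) and NR4A1 (0.013) for MS41 against MS41N at 6 h, and JUNB in SEMK2 (0.032). FOS in that comparison was 0.0058 with a stricter count filter, and FOSB -0.0016 with none. With the ENL guides ATF3 changed sign without control guide replicate 1, and without any 1 library it ranged from -1.29 to 0.71 over both guides, from -1.56 to 0.44 with guide 1 and from -1.02 to 0.99 with guide 2 (0.99 with adjusted p = 0.018, against -0.35 with all libraries). Without any 1 library ATF3 at 6 h ranged from -0.085 to 0.055 with MS41N and from -0.079 to 0.061 with PFI-6. For MS41 against MS41N at 6 h FOS ranged from -0.059 to 0.062, FOSB from -0.12 to 0.12, NR4A1 from -0.19 to 0.20 and NR4A2 from -0.065 to 0.11. At 24 h FOS with MS41 ranged from -0.081 to 0.0197 and NR4A2 with MS41N from -0.062 to 0.089. The JUND change of the MS41 effect ranged from -0.078 to 0.0056, EGR1 over both guides from -0.070 to 0.89, and FOSB in vivo from -0.25 to 0.15. The cause was not tested.

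Without 1 library the count of members called ranged 6 to 9 and 6 to 8 for MS41 against DMSO at 6 h and 24 h, 0 to 2 for MS41N and 3 to 4 for PFI-6 at 6 h, 0 to 0 for MS41N and 1 to 4 for PFI-6 at 24 h, 5 to 5 and 7 to 8 for MS41 against MS41N, 2 to 3 and 9 to 9 for MS41 against PFI-6, and 0 to 0 for PFI-6 against MS41N at both times. It ranged 1 to 2, 0 to 0 and 0 to 3 for the changes of the MS41, MS41N and PFI-6 effects, 5 to 6 for DMSO over time, 2 to 6 in SEMK2, 1 to 2 for both guides and for guide 1, 0 to 2 for guide 2 and 0 to 0 in vivo. Over all genes, replicate numbers did not pair the compound or SEMK2 libraries (correlations of deviations -0.03 to 0.07 and -0.007 to 0.021). Over the members alone these correlations ran from -0.80 to 0.96 between compound groups and from -0.77 to 0.29 in SEMK2. FOSB was highest in replicate 3 in 8 of 8 compound groups, and JUNB, JUND and NR4A1 in 2 each. Whether replicate number pairs the libraries for single members was not tested. The replicate block, given for comparison, called 4 members for MS41N and 5 for PFI-6 at 6 h, 5 for PFI-6 at 24 h, 2 and 4 for the MS41N and PFI-6 changes, 3 for both guides (FOS, JUND and NR4A1; correlations 0.021 to 0.238) and 2 for each guide, and in vivo 1 member was called without it. At 6 h the block called FOSB for MS41N (adjusted p = 0.0089) and PFI-6 (0.0034) and JUN for both (0.0016 and 0.001). DESeq2 called 4 for MS41N and 5 for PFI-6 at 6 h, and 1 and 4 for the MS41N and PFI-6 changes. Fits of the compared groups only called 5 for PFI-6 and 1 for PFI-6 against MS41N at 24 h and 1 each for those changes. Removal of the GC trend called 2 and 4 for them, and fits with no count filter called 1 for the MS41N change, 2 for guide 2 and 1 in vivo.

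Over all genes tested, counts of calls that moved by over 1.5 times were 73 for MS41N at 6 h (up to 182 with no count filter), 8 at 24 h (4 with the compared groups only, up to 83 with no filter), 466 for PFI-6 at 6 h (up to 886 with the compared groups only), 2806 at 24 h (677 with the GC trend removed), 3 and 24 for PFI-6 against MS41N at 6 h and 24 h (1 to 23 and 6 to 189), 4 and 27 for the MS41N and PFI-6 changes (up to 75 and 200 with no filter), 1853 for both guides, 1346 for guide 1 and 888 for guide 2 (up to 3203, 2578 and 1932 with the replicate block), 291 in SEMK2 (up to 924 with the GC trend removed) and 7 in vivo (up to 523 with no replicate block). Without 1 library these counts ranged 12 to 64 and 0 to 9 for MS41N at 6 h and 24 h, 126 to 309 and 1381 to 2458 for PFI-6, 1 to 5 and 0 to 18 for PFI-6 against MS41N, 0 to 12 and 7 to 65 for the MS41N and PFI-6 changes, 940 to 2621 for both guides, 596 to 2191 and 269 to 1874 for guides 1 and 2, 100 to 2986 in SEMK2 and 0 to 35 in vivo. NR4A1, with 14 to 76 counts per compound library, is the member whose depth limits what can be told.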

Other observations

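CXCL8, a chemokine gene listed among the AP-1 and EGR targets and named after its values were seen, was also higher with the ENL guides, at 2.71 and 2.94 CPM with guide 1 and 2.86 and 2.97 CPM with guide 2, against 1.56 and 1.40 CPM with the control guide (0.95, SE 0.17, edgeR adjusted p = 0.0036).

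In the MV4;11 compound libraries FOSB was highest in replicate 3 in 8 of 8 groups and lowest in replicate 1 in 7. NR4A2 was highest in replicate 3 in 6 groups and lowest in replicate 1 in 7, and FOS and JUN each in 5 and 6. Over all genes tested the means were 2.57 and 2.65 groups, and 0.0352% of genes were highest in replicate 3 in every group. The labels do not say what a replicate number stands for.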
